A study of Homo sapiens with 12 samples.

Results

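Small nucleolar RNAs (snoRNAs) and small Cajal body RNAs (scaRNAs) are short RNAs that guide the chemical modification or the cleavage of ribosomal and spliceosomal RNA. The genes described here are those of type snoRNA or scaRNA in GENCODE v29 whose count, on the transcript row with the highest total, came to at least 120 over 12 libraries of the human acute myeloid leukaemia line THP-1. Of 992 such genes in the annotation, 968 had a row, 449 had any count and 70 passed the minimum, out of 57096 human genes with a row. The 70 comprised 30 box C/D RNAs (SNORD), 26 box H/ACA RNAs (SNORA), 5 scaRNAs and 9 genes that carry only an Rfam family name. All 70 also passed the filter on low counts that preceded the tests. Just inside the minimum stood the Rfam gene RF01210 in NCALD with 120 counts, RF00432 in N4BP2 with 122 and SNORA62 with 125, and just outside stood RF00599 in RERE with 118, RF00045 in MIB1 with 111 and SNORD99 with 109. Members were thus chosen by their total count over all libraries, so a gene high in 1 group alone could enter through that group.

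THP-1 cells, which carry the MLL-AF9 fusion, received AZ5576 (known as a CDK9 inhibitor), THZ531 (CDK12 and CDK13), YKL5124 (CDK7) or the vehicle DMSO for 2 hours, and every group received 1 mM 4-thiouridine during the final 10 minutes. Each group had 3 libraries, made from polyadenylated RNA with a kit that reads 3′ ends, after Drosophila S2 material was spiked in at 5%. The labels give no dose. Nothing in them says that replicates came from separate cultures, and the p-values therefore reflect variation among libraries that may be only technical. The 3 columns taken as DMSO are named UT in the table, a name the labels do not explain.

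Human counts ran between 5048321 (AZ5576 replicate 2) and 12743576 per library. The 70 RNAs held between 0.0665% (DMSO replicate 2) and 0.098% (THZ531 replicate 1) of them. All 11 myeloid markers of THP-1 exceeded 1 CPM (a library's count scaled to a common total) in DMSO, and of 14 markers of other cell types 2 did and 5 were at 0. The summed level of those 14 was 29.4 to 38.9 CPM in AZ5576, 32.9 to 38.7 in THZ531, 31.3 to 33.2 in YKL5124 and 26.5 to 30.5 in DMSO.

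Box C/D RNAs bind fibrillarin and guide ribose methylation, and box H/ACA RNAs bind dyskerin and guide pseudouridylation. In human cells most are cut out of the introns of host genes, many of which encode ribosomal proteins or are non-coding snoRNA host genes (SNHG), while a few, among them U3, U8 and U13, have promoters of their own. Mature snoRNAs carry no poly(A) tail, so the counts of these libraries are not levels of mature RNA. They are reads at 3′ ends captured through poly(A), and which precursor, tailed or host transcript gave them was not resolved.

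Of the 70, 63 lay inside a host gene on the same strand (53 distinct hosts) and 7 in none. Relative to the annotated transcripts of the host, 32 were intronic, 26 lay wholly and 5 partly in an exon. Reads of an RNA that lies in a host exon cannot be told apart from reads of the host transcript. By kind of host, 9 RNAs lay in SNHG genes, 9 in ribosomal protein genes and 45 in other genes.

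The sequences of 7 RNAs on which the results turn are shown, as pairs that share a host where one exists, because such pairs moved apart. They are GENCODE v29 transcripts on GRCh38. Capitals mark exact matches on the RNA's own strand. TGATGA, the letters of the box C consensus core, was sought at any position, so a match, as in SNORD84, need not be box C itself. CTGA was sought within the last 20 bases (box D) and ACA within the last 8 bases (box ACA).
SNORD84: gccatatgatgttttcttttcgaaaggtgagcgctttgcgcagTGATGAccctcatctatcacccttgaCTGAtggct
SNORA50C: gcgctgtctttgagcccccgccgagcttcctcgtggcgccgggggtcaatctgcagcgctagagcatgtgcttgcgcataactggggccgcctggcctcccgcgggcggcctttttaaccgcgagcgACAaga
SNORD104: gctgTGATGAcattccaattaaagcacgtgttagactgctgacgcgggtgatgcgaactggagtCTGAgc
SNORA31B: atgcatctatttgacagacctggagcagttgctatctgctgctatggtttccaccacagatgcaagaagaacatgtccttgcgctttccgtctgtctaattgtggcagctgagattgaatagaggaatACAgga
SNORA31: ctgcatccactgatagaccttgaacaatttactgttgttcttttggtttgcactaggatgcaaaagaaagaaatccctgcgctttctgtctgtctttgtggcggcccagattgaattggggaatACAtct
SNORD22: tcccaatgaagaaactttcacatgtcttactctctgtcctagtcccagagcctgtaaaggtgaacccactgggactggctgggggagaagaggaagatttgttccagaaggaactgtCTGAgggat
SNORD26: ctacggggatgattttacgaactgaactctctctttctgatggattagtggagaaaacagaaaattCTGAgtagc
SNORD84 lies at chr6:31541101-31541178 on the minus strand in an exon of DDX39B. SNORA50C (chr17:64146339-64146471, plus strand) lies in an exon and SNORD104 (chr17:64146083-64146152, plus strand) in an intron of SNHG25. SNORA31B (chr13:45336314-45336447, minus strand) lies in an exon of TPT1 and SNORA31 (chr13:45337480-45337609, minus strand) partly in one. SNORD22 (chr11:62852910-62853035) and SNORD26 (chr11:62855292-62855366), both on the minus strand, lie in exons of SNHG1 transcripts. TGATGA was present in 26 of the 30 C/D RNAs (86.7%), against 70.8% of the 360 C/D genes with a row, which include the 30. CTGA near the end was present in 83.3% of the 30, against 86.4% of the 360. ACA near the end was present in 23 of the 26 H/ACA RNAs (88.5%), against 82.0% of the 211 H/ACA genes with a row, which include the 26. A match is a description of these letters only.

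THZ531 gave the largest number of changes among the 3 inhibitors. Of the 70 RNAs, 42 were higher and 8 lower in THZ531 than in DMSO, with a median log2 fold change of 0.62. Among all 15831 genes tested, 63.4% were called, 30.4% higher and 32.9% lower, and the median was -0.002. Calls are edgeR quasi-likelihood tests with Benjamini-Hochberg adjusted p under 0.05 over all genes tested, and TMM scaling sets each fold change against the bulk of human genes. Of the 42 RNAs, 13 had under 90 counts in the 9 libraries outside THZ531 and entered the set through THZ531. Among the other 57, a limit chosen after seeing the data, 29 were higher and 8 lower (median 0.48). The limit of 90 does not remove every RNA that needed its THZ531 counts to reach the minimum of 120. SNORA61 (117 counts outside THZ531) and SNORD58 in PRPF39 (94), both higher, needed them, as did SNORA58 (117) and RF01210 in NCALD (116), both lower. Several uncalled RNAs did too. With scaling to the fly spike-in, 26 of the 70 were higher and 11 lower, and with library size alone 28 and 10. The shares of all genes above are from TMM scaling. Those under the other scalings are not given here, so these counts have no background. Fly scaling moved the median of all genes by -0.37 for THZ531, -0.17 for AZ5576 and -0.07 for YKL5124. In bulk libraries, fewer cells and less RNA per cell cannot be told apart.

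**Figure D1:**
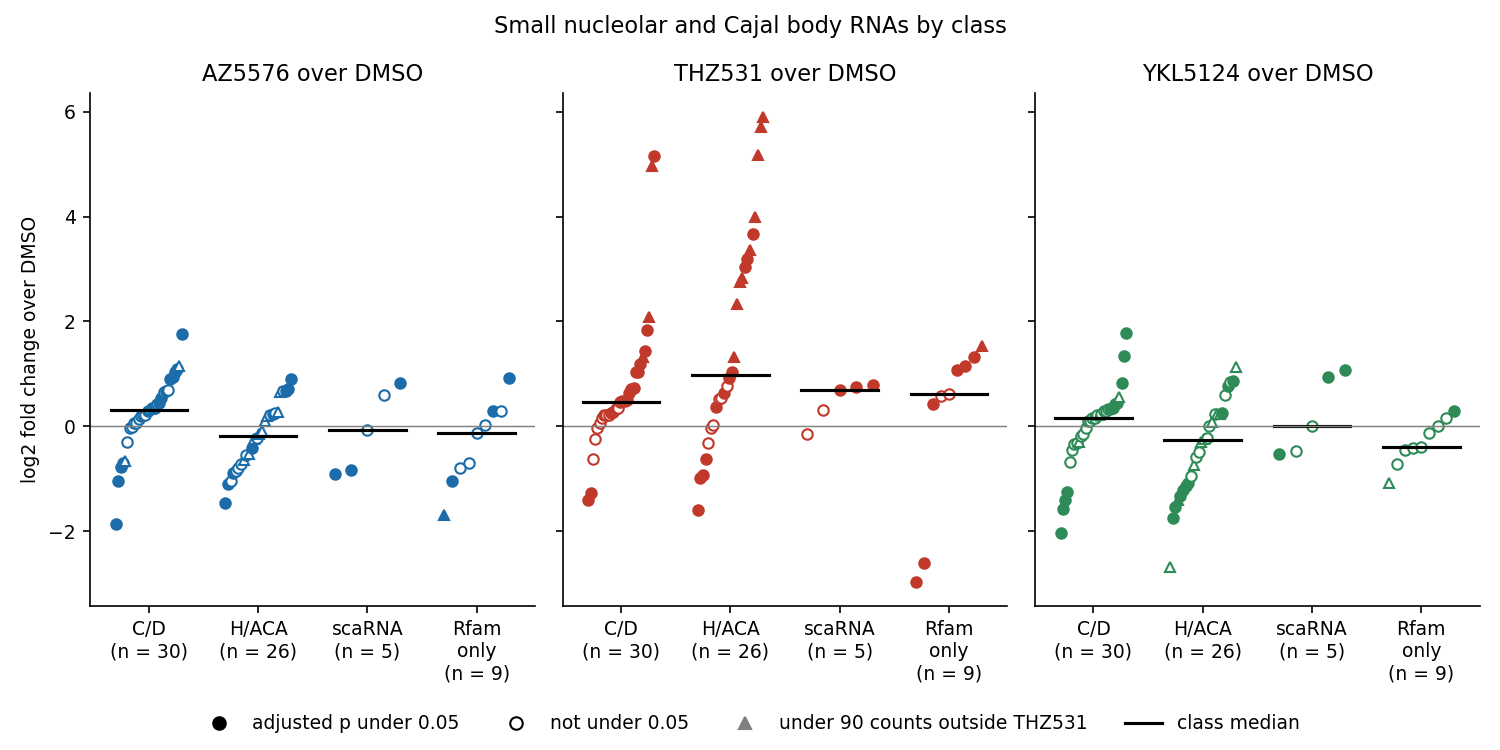
Log2 fold change against DMSO of each of the 70 RNAs, by class and inhibitor, with filled points for an adjusted p under 0.05, triangles for the 13 RNAs with under 90 counts outside THZ531 and a black line at the class median. The H/ACA median in THZ531 is 0.98 with the triangles, which hold most of the points at the top of that panel, and 0.52 without them.

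Among the 57 RNAs with at least 90 counts outside THZ531, 15 of 27 C/D RNAs were higher and 2 lower in THZ531 (median 0.36). Of 17 H/ACA RNAs, 7 were higher and 4 lower (median 0.52). Split by position, 9 of 18 exonic RNAs were higher and 0 lower by edgeR, and 11 of 27 intronic RNAs were higher and 6 lower, with medians of 0.50 and 0.49. Of 5 RNAs in ribosomal protein genes 4 were higher, and of 7 in SNHG genes 4. The 13 RNAs that entered through THZ531 comprised 3 C/D, 9 H/ACA and 1 Rfam RNA, and all 13 were higher by the way they were chosen.

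Among the 57 RNAs with at least 90 counts outside THZ531, 4 were at least 4-fold higher, against 1.12% of all genes. SNORD84 had 65.9, 70.3 and 69.7 CPM in THZ531, 3.28, 3.76 and 4.67 in AZ5576, 1.45, 2.61 and 2.50 in YKL5124, and 1.78, 1.43 and 2.44 in DMSO. The THZ531 libraries stood apart from all other libraries, and the AZ5576 libraries lay above DMSO without overlap, whereas YKL5124 and DMSO overlapped. The log2 fold change was 5.16 in THZ531 (SE 0.14, adjusted p = 1.37e-22) and 1.04 in AZ5576 (SE 0.23, adjusted p = 0.000463). DDX39B, the host, encodes a helicase of splicing and mRNA export. It had 105, 89.4 and 89.0 CPM in THZ531 and 70.0, 60.0 and 58.7 CPM in DMSO, a log2 change of 0.58 (SE 0.09, adjusted p = 2.58e-06) that was no longer called with fly scaling (0.23).

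SNORA50C had 59.4, 55.6 and 57.2 CPM in THZ531, 5.75, 4.16 and 5.26 in AZ5576, 3.15, 2.98 and 3.41 in YKL5124, and 6.08, 6.47 and 8.41 in DMSO. It was high in THZ531 and low in YKL5124, with no overlap between any inhibitor and DMSO. The change was 3.03 in THZ531 (SE 0.11, adjusted p = 8.19e-20) and -1.13 in YKL5124 (SE 0.17, adjusted p = 9.1e-06). The change of -0.41 in AZ5576 (SE 0.16, adjusted p = 0.0336) was no longer called without AZ5576 replicate 2 (-0.34), AZ5576 replicate 3 (-0.42) or DMSO replicate 3 (-0.25).

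SNORA31B, an H/ACA RNA in the gene of the translationally controlled tumour protein TPT1, had 21.7, 22.6 and 20.2 CPM in THZ531 and 1.48, 2.19 and 1.49 CPM in DMSO. These groups did not overlap, and the change was 3.66 (SE 0.19, adjusted p = 2.74e-16). SNORA61, in the non-coding gene SNHG12, had 14.5, 16.4 and 16.6 CPM in THZ531 and 2.07, 1.71 and 1.34 CPM in DMSO, a change of 3.20 (SE 0.20, adjusted p = 3.02e-14). With 117 counts outside THZ531, SNORA61 reached the minimum of 120 only through its THZ531 counts, so its entry was not independent of that group. SNHG12 itself had 30.7, 27.2 and 30.6 CPM in THZ531 and 29.6, 30.5 and 29.2 CPM in DMSO, so the 2 groups overlapped for the host and not for the RNA it holds. Over 23 alternatives the THZ531 change lay between 4.80 and 5.39 for SNORD84, 2.66 and 3.19 for SNORA50C, 3.30 and 3.84 for SNORA31B, and 2.84 and 3.38 for SNORA61. For SNORD84, SNORA50C and SNORA31B it was called in each.

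Another 10 RNAs were at least 4-fold higher in THZ531 but had under 90 counts elsewhere, so their rise is a description of how they entered. SNORD45A, in RABGGTB, a subunit gene of a Rab prenylating enzyme, had 5.73, 6.18 and 4.6 CPM in THZ531 and 0.148, 0.286 and 0.0786 CPM in DMSO. Its counts were 143 in THZ531 and 6 in DMSO, a depth-scaled ratio of 33.5 with an exact 95% interval of 15.0 to 92.9 that covers counting error only. By the same measure SNORA9 in SNHG15 had a ratio of 68.0 (22.8 to 334), SNORA3B in RPL27A 59.6 (19.9 to 293), SNORA17B in SNHG7 38.7 (17.4 to 107) and SNORA65 in RPL12 16.5 (8.64 to 35.2). Each of these 5 had at most 10 counts over the 3 DMSO libraries. The other 5 were SNORA63 and SNORA4, both in the translation initiation helicase gene EIF4A2, SNORA27 in RPL21, SNORA62 in RPSA and SNORD38C in DCP1A.

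**Figure D2:**
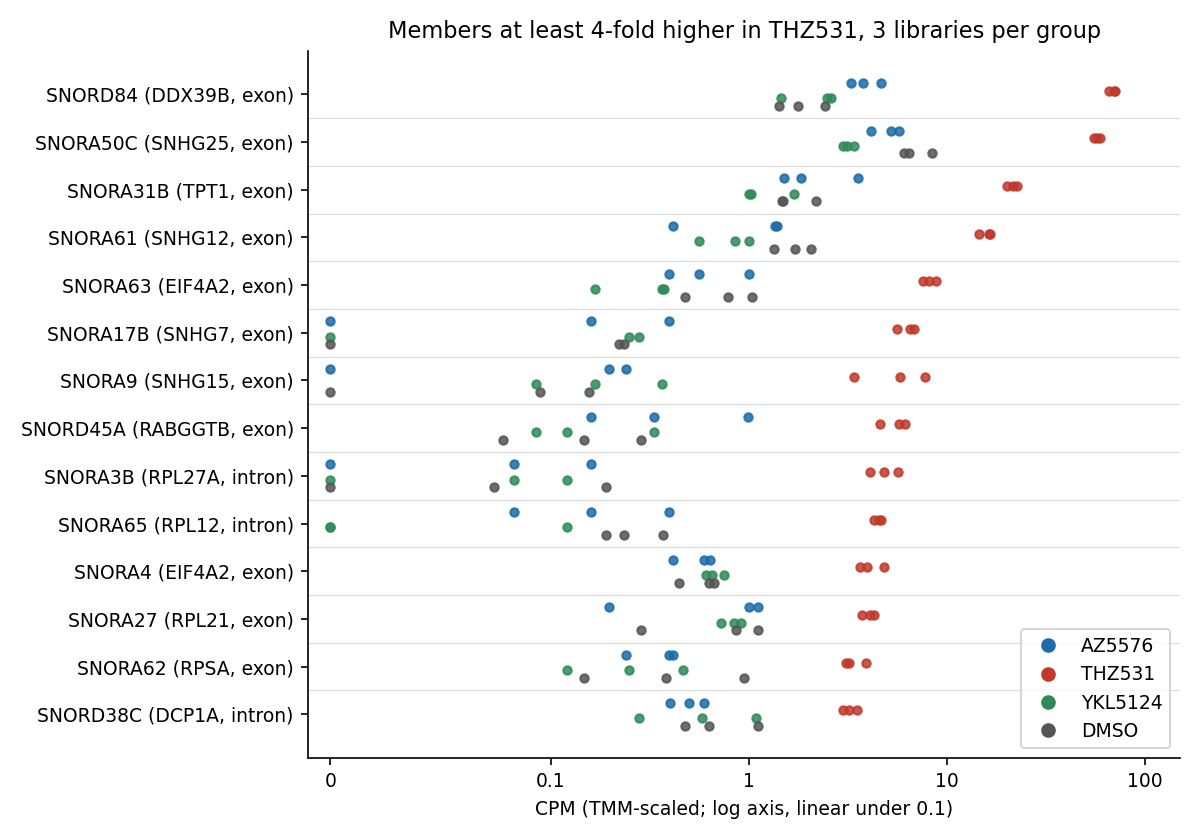
CPM of the 14 RNAs at least 4-fold higher in THZ531 in each of the 12 libraries, on an axis that is linear below 0.1 CPM and logarithmic above. The 3 THZ531 points of each RNA lie above its 9 other points, for example 65.9 to 70.3 CPM against 1.43 to 4.67 CPM for SNORD84. All 14 were picked for this rise, and most had under 90 counts outside THZ531. Their separation is therefore largely set by the choice.

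The 14 RNAs comprised 11 H/ACA and 3 C/D RNAs, 11 in an exon and 3 in an intron of the host, a makeup that the choice of members partly sets. The 4 with at least 90 counts outside THZ531 lay in hosts of 507 to 12230 bases, at 369 to 4923 bases from the host's start. The hosts of the 46 other RNAs of that kind were 427 to 442990 bases long, a range that takes in those 4.

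The 8 RNAs lower in THZ531 included a copy of U3 and a C/D RNA of the U13 family. The U3 copy, in an intron of the long non-coding gene XACT, had 13.2, 16.1 and 18.0 CPM in THZ531, 69.5, 68.4 and 61.7 in AZ5576, 50.3, 62.3 and 56.2 in YKL5124, and 41.9, 39.5 and 43.6 in DMSO. No inhibitor overlapped DMSO, with THZ531 below it and the other two inhibitors above. Its log2 change was -1.40 in THZ531 (SE 0.10, adjusted p = 1.24e-12), 0.67 in AZ5576 (SE 0.09, adjusted p = 3.15e-07) and 0.44 in YKL5124 (SE 0.09, adjusted p = 0.000397). XACT had too few counts to be set beside it.

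RF00432, an Rfam gene on chromosome 1 with no host, had 0.911, 1.10 and 1.82 CPM in THZ531 and 7.26, 9.23 and 7.71 CPM in DMSO. The groups did not overlap, and it fell by 2.61 in THZ531 (SE 0.26, adjusted p = 3.72e-10), with no call in AZ5576 (-0.13) or YKL5124 (-0.13). RF01210 in an intron of NCALD fell by 2.97 in THZ531 (SE 0.56, adjusted p = 3.25e-05), on 4 counts over the 3 THZ531 libraries. SNORD13E, a C/D RNA of the U13 family, fell by 1.26 (SE 0.33, adjusted p = 0.00125), while its host DENND4A changed by -1.75 on the row used here. With all rows of DENND4A summed the host's change was -0.80, and its single rows lay between -1.76 and 4.81. SNORA72 in NUCKS1 fell by 1.60 (SE 0.34, adjusted p = 0.000163). The remaining 3 were SNORA11F (-0.99), SNORA58 (-0.92) and SNORA62 in ZMYM4 (-0.62), and each call hung on single libraries. SNORA11F was not called without THZ531 replicate 2 (-0.67) or DMSO replicate 2 (-0.89), and SNORA58 without THZ531 replicate 2 (-0.75) or 3 (-0.90) or DMSO replicate 1 (-0.66). SNORA62 in ZMYM4 was not called without THZ531 replicate 1 (-0.48) or 3 (-0.61) or DMSO replicate 1 (-0.53).

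AZ5576 and YKL5124 gave fewer calls. In AZ5576, 18 of the 70 RNAs were higher and 12 lower than in DMSO (median 0.13), beside 18.6% and 23.1% of all genes (41.7% called in either direction). In YKL5124, 13 were higher and 12 lower (median -0.01), beside 7.25% and 13.5% of all genes (20.8% in either direction). With fly scaling the counts were 10 higher and 16 lower in AZ5576 and 9 higher and 12 lower in YKL5124, and with library size alone 12 and 15, and 12 and 12. For these scalings too, no shares of all genes are given. C/D RNAs were more often higher than lower in both (11 and 4 in AZ5576, 7 and 4 in YKL5124), and H/ACA RNAs were split 4 and 4 in AZ5576 and 3 and 7 in YKL5124. The difference between the classes was not tested. Intronic RNAs had a median of -0.59 in AZ5576 and -0.35 in YKL5124, and exonic RNAs 0.22 and 0.16.

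SNORD13 and SNORD118, which are known from promoters of their own, were higher in AZ5576 and YKL5124, whereas SNORD13E of the U13 family was not called in YKL5124 (-0.14) and stood at -0.77 in AZ5576. That last value was called, and was not without AZ5576 replicate 2 (-0.54) or 3 (-0.74) or DMSO replicate 1 (-0.59). SNORD13 (U13, needed for acetylation of the small ribosomal subunit RNA) had 15.6, 13.7 and 18.8 CPM in AZ5576, 5.08, 7.06 and 8.02 in THZ531, 19.9, 14.6 and 15.6 in YKL5124, and 6.37, 4.95 and 3.07 in DMSO. AZ5576 and YKL5124 lay above DMSO without overlap, and THZ531 overlapped it. An exon of TTI2 lies over SNORD13 on the opposite strand, and the strand setting of the counts is not known. Whether TTI2 reads were counted here was not tested. The log2 change was 1.76 in AZ5576 (SE 0.18, adjusted p = 5.14e-09) and 1.78 in YKL5124 (SE 0.18, adjusted p = 1.01e-08). In THZ531 it was 0.50 (SE 0.22, adjusted p = 0.0466), a call lost without THZ531 replicate 2 or 3 (0.44 and 0.32) or DMSO replicate 2 or 3 (0.51 and 0.25).

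SNORD118 (U8, which acts in the processing of the large ribosomal subunit RNA) had 5.99, 4.95 and 4.59 CPM in AZ5576, 3.52, 2.43 and 2.89 in THZ531, 5.46, 4.75 and 4.66 in YKL5124, and 3.33, 2.76 and 2.20 in DMSO. Its changes were 0.91 in AZ5576 (SE 0.20, adjusted p = 0.000637) and 0.82 in YKL5124 (SE 0.20, adjusted p = 0.00356), without overlap with DMSO, and 0.07 in THZ531, where the groups overlapped. TMEM107, whose exon holds it, changed by 0.02, -0.29 and -0.13 in AZ5576, THZ531 and YKL5124. SNORD17, an intronic C/D RNA of SNX5, had 6.18, 2.70 and 5.00 CPM in YKL5124 and 2.67, 0.666 and 1.81 CPM in DMSO, a change of 1.34 (SE 0.31, adjusted p = 0.00203). In AZ5576 its change was 1.09 (SE 0.33, adjusted p = 0.00849), no longer called without AZ5576 replicate 3 (0.70) or DMSO replicate 2 (0.75).

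The U3 genes proper, whose RNA is needed for cleavage of the ribosomal precursor, shifted little. SNORD3A had 99.8, 90.7 and 105 CPM in AZ5576, 100, 98.7 and 98.0 in THZ531, 104, 105 and 103 in YKL5124, and 89.6, 66.1 and 77.2 in DMSO. Every inhibitor library lay above every DMSO library, of which replicate 2 was the lowest, and the changes were 0.35, 0.34 and 0.42 in that order of inhibitors. SNORD3B-1 (0.30, 0.28 and 0.36) and SNORD3B-2 (0.35, 0.22 and 0.34) were called higher in all 3 as well, and SNORD3C (0.22, 0.22 and 0.30) in none. With fly scaling none of the 3 was called in AZ5576 by edgeR (0.16, 0.11 and 0.16), SNORD3A alone was in YKL5124 (0.35, 0.29 and 0.27), and in THZ531 their sign turned (-0.02, -0.09 and -0.15), where the SNORD3B-1 call was also lost without DMSO replicate 2 (0.16). The SNORD3B-2 call was lost without DMSO replicate 2 (0.09) and without any 1 THZ531 library (0.17 to 0.22). Any pair of these 4 genes is at most 99.5% and at least 99% identical over its aligned bases, so their reads may be shared and the single values are uncertain. The copies in XACT and in SIGLEC11 are 76.3% to 79.2% identical to them.

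**Figure D3:**
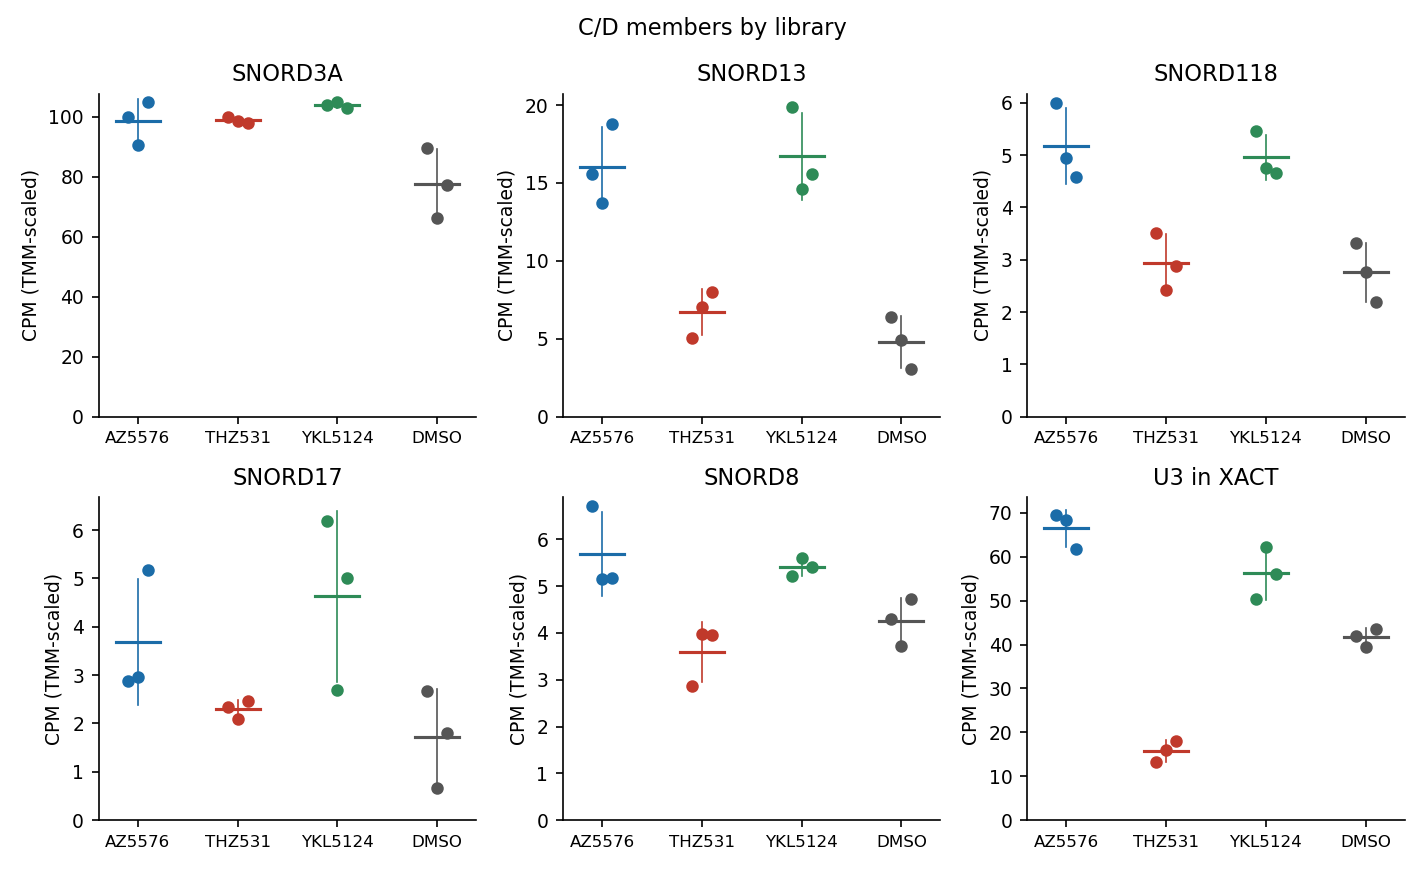
CPM of 6 C/D RNAs in the 4 groups, with dots for libraries, a horizontal bar for the group mean and a vertical bar for 1 SD (n = 3). SNORD13, SNORD118 and SNORD17 are higher in AZ5576 and YKL5124 than in DMSO, and the U3 copy in XACT is lower in THZ531 (13.2 to 18.0 CPM) than in DMSO (39.5 to 43.6 CPM).

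Of RNAs in hosts that were higher in all 3 inhibitors, SNORA12 in an intron of CWF19L1 had changes of 0.90 in AZ5576 (SE 0.18), 0.92 in THZ531 (SE 0.18) and 0.78 in YKL5124 (SE 0.18), while CWF19L1 changed by -0.03, -0.11 and -0.07, with no call. In all, 9 RNAs were called higher in each inhibitor and 12 were called in none. The shares of all genes with these patterns were not counted, so neither number can be set against a background. The uncalled RNAs included SNORD116-8, with 0.959, 0.792 and 1.00 CPM in AZ5576, 1.30, 1.10 and 1.39 in THZ531, 1.09, 1.21 and 0.749 in YKL5124, and 1.04, 0.761 and 0.865 in DMSO. It was the only one to pass the minimum of the SNORD116 copies of the imprinted gene SNHG14, and its reads may be shared with other copies. Because each inhibitor was set against the same DMSO libraries, agreement between these lists is not independent.

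Falls in AZ5576 and YKL5124 included the C/D RNA SNORD104 of SNHG25. SNORD104 had 3.83, 5.55 and 6.68 CPM in AZ5576, 10.5, 10.1 and 11.3 in THZ531, 3.88, 2.89 and 1.58 in YKL5124, and 9.71, 12.6 and 10.7 in DMSO. AZ5576 and YKL5124 lay below DMSO without overlap, with changes of -1.04 (SE 0.19, adjusted p = 5.18e-05) and -2.03 (SE 0.21, adjusted p = 1.54e-08), and THZ531 overlapped DMSO (-0.03).

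Each RNA was then set beside its host as a log2 ratio per library. Of 61 pairs with enough host counts, 48 held an RNA with at least 90 counts outside THZ531. Over these 48 the change of that ratio against DMSO had a median of 0.08 in AZ5576, 0.30 in THZ531 and -0.08 in YKL5124. At least 2-fold upward changes were seen in 5, 10 and 7 pairs and downward changes in 6, 4 and 5. With the other 13 pairs, whose RNAs were chosen through their THZ531 counts, the medians were 0.04, 0.56 and -0.10, and THZ531 had 21 upward pairs. Of the 48, the 22 RNAs wholly or partly in an exon had medians of 0.28, 0.26 and 0.20, and the 26 intronic ones -0.60, 0.33 and -0.33. An exact two-sided permutation test of 3 against 3 libraries cannot give a p below 0.1, so these ratios are given by whether groups overlap.

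**Figure D4:**
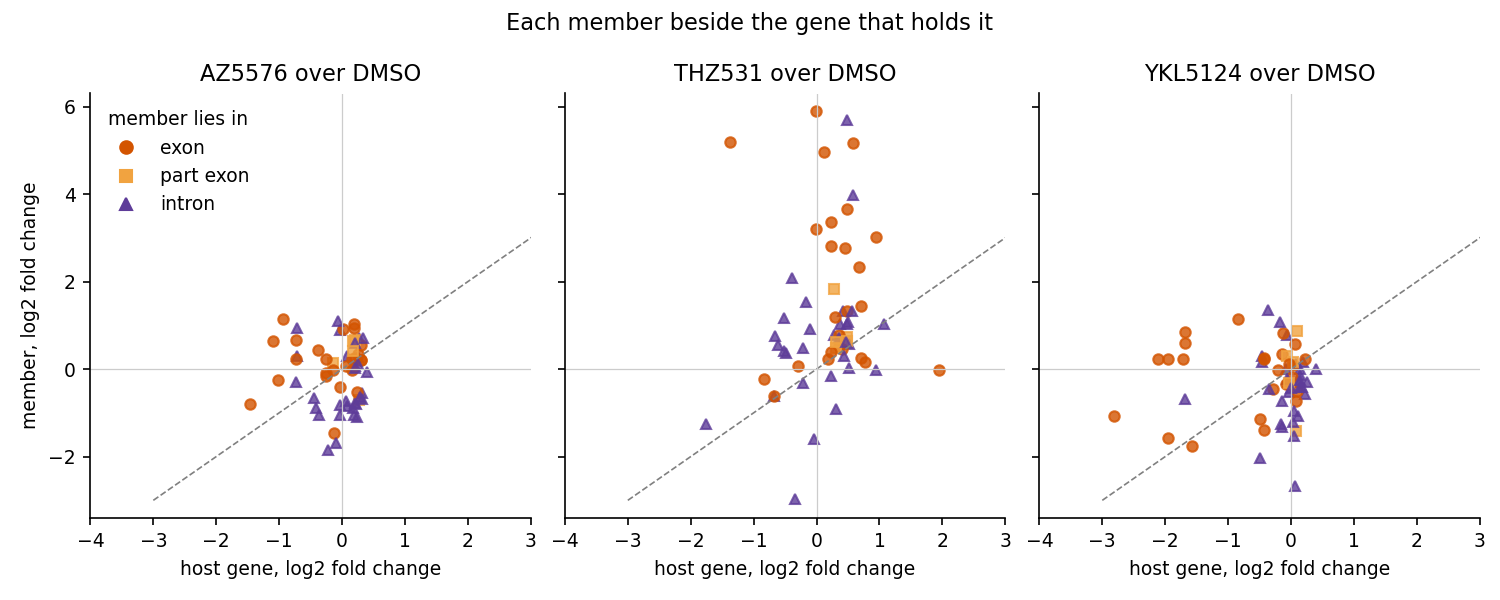
Log2 fold change of each RNA (vertical axis) against that of its host (horizontal axis) for 61 pairs, 1 panel per inhibitor against DMSO, with a dashed line where both change equally. Circles are RNAs in an exon, squares partly in one and triangles in an intron. In THZ531 points lie far above the line, among them SNORD84 (5.16, host 0.58) and RNAs that entered the set through THZ531.

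SNORD84 stood at log2 ratios to DDX39B of -0.68, -0.35 and -0.35 in THZ531 and -5.15, -5.21 and -4.48 in DMSO, a difference of 4.49 without overlap. SNORA61 stood at -1.08, -0.72 and -0.88 to SNHG12 in THZ531 and at -3.71, -4.01 and -4.26 in DMSO. This was not particular to THZ531. In YKL5124, where SNHG12 changed by -2.81, SNORA61 stood at -1.88, -2.27 and -2.21, also above DMSO without overlap. The AZ5576 ratios overlapped DMSO. Between THZ531 and DMSO, SNORA31B differed by 3.04 and SNORA50C by 2.08 from their hosts. For both, every THZ531 ratio lay above every DMSO ratio. In the other direction, SNORA57 in an exon of CSKMT, a mitochondrial methyltransferase gene, differed by -1.92 in THZ531, where CSKMT had 40.8, 37.2 and 42.2 CPM against 11.2, 10.3 and 9.67 CPM in DMSO. SNORA57 had 1.95, 1.87 and 1.71 CPM in THZ531 and 1.48, 2.86 and 1.42 CPM in DMSO. The CSKMT row over SNORA57 changed by only 0.20 in THZ531, against up to 1.94 among CSKMT rows elsewhere. The difference of -1.92 thus depends on the row that stood for the host.

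Host genes have several transcript rows, and the row with the highest total does not always cover the RNA. In RABGGTB the highest log2 change in THZ531 was 3.01 among rows over SNORD45A and 0.49 among rows elsewhere. In SNHG15 it was 3.47 among rows over SNORA9 and -0.01 elsewhere, and in SNHG7 2.04 over SNORA17B and -1.37 elsewhere. For EIF4A2 it was 3.07 over SNORA63 and 1.12 elsewhere. SNORD45A, SNORA9, SNORA17B and SNORA63 all entered the set through THZ531. Host rows needed at least 120 counts over the 12 libraries, so a row over such an RNA could enter through THZ531 as well. The high values over these RNAs are therefore a description. For DDX39B (0.57 over SNORD84 and 0.69 elsewhere), TPT1 (0.49 and 0.49) and SNHG25 (0.93 and 0.77) the rows over the RNA did not stand apart. All 10 rows of SNHG12 changed by -0.01, whether over SNORA61 or elsewhere. The SNHG12 rows therefore could not stand apart, and they say nothing on this point. Without the 34 RNAs that lie under an exon of another gene, 17 of 36 were higher and 8 lower in THZ531, beside 30.4% and 32.9% of all genes. The 17 include SNORA3B, SNORA65, SNORD38C, SNORA74A and RF00432 in N4BP2, which entered the set through THZ531.

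RNAs of 1 host moved apart. SNHG25 had 423, 414 and 423 CPM in THZ531 and 231, 203 and 224 CPM in DMSO, a change of 0.94 (SE 0.07, adjusted p = 1.51e-12). The log2 ratio of SNORD104 over SNORA50C, whose sequences stand above, was -2.47, -2.43 and -2.32 in THZ531, -0.56, 0.40 and 0.33 in AZ5576, 0.28, -0.04 and -1.02 in YKL5124, and 0.66, 0.94 and 0.34 in DMSO. The THZ531 libraries lay below all others, a difference of -3.05 from DMSO. The ratio of SNORA31B over SNORA31 in TPT1 was 1.01, 0.82 and 0.86 in THZ531, -2.51, -1.48 and -2.94 in AZ5576, -2.69, -3.2 and -3.82 in YKL5124, and -2.25, -1.62 and -2.12 in DMSO. SNORA31B was thus the higher of the pair in THZ531 libraries and the lower in all 9 others. SNORA31 itself changed by 0.67 in AZ5576 (SE 0.15, adjusted p = 0.00073), 0.64 in THZ531 (SE 0.15, adjusted p = 0.000634) and 0.86 in YKL5124 (SE 0.15, adjusted p = 5.37e-05), with the THZ531 call lost under fly scaling (0.28).

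SNHG1 holds SNORD22, the U22 RNA of small-subunit ribosomal RNA processing, and SNORD26, a methylation guide. SNHG1 had 149, 137 and 150 CPM in AZ5576, 176, 209 and 195 in THZ531, 29.9, 30.5 and 31.2 in YKL5124, and 120, 104 and 130 in DMSO. It fell by 1.95 in YKL5124 (SE 0.08, adjusted p = 9.72e-17). SNORD22 had 3.83, 8.12 and 4.51 CPM in AZ5576, 10.5, 9.15 and 8.13 in THZ531, 1.33, 1.21 and 0.916 in YKL5124, and 3.26, 3.71 and 3.22 in DMSO. Like its host it was low in YKL5124 and high in THZ531, with no overlap with DMSO. It fell by 1.57 in YKL5124 (SE 0.29, adjusted p = 0.000178) and rose by 1.44 in THZ531 (SE 0.20, adjusted p = 3.02e-07). The change of 0.55 in AZ5576 (adjusted p = 0.0442) was lost without AZ5576 replicate 2 (0.31) or 3 (0.64) or DMSO replicate 1 (0.53) or 3 (0.52).

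SNORD26 had 94.5, 99.5 and 91.4 CPM in AZ5576, 102, 96.3 and 98.4 in THZ531, 108, 93.3 and 86.8 in YKL5124, and 97.7, 65.1 and 83.1 in DMSO. Every inhibitor overlapped DMSO, and the changes were 0.20 in AZ5576, 0.26 in THZ531 and 0.22 in YKL5124. The THZ531 value alone was called (SE 0.09, adjusted p = 0.0169). That call was lost without THZ531 replicate 1 (0.21), THZ531 replicate 3 (0.24) or DMSO replicate 2 (0.13), and its sign turned with fly scaling (-0.10). Against its host, SNORD26 stood at 1.84, 1.61 and 1.47 in YKL5124 and at -0.29, -0.67 and -0.65 in DMSO, a difference of 2.18 without overlap.

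**Figure D5:**
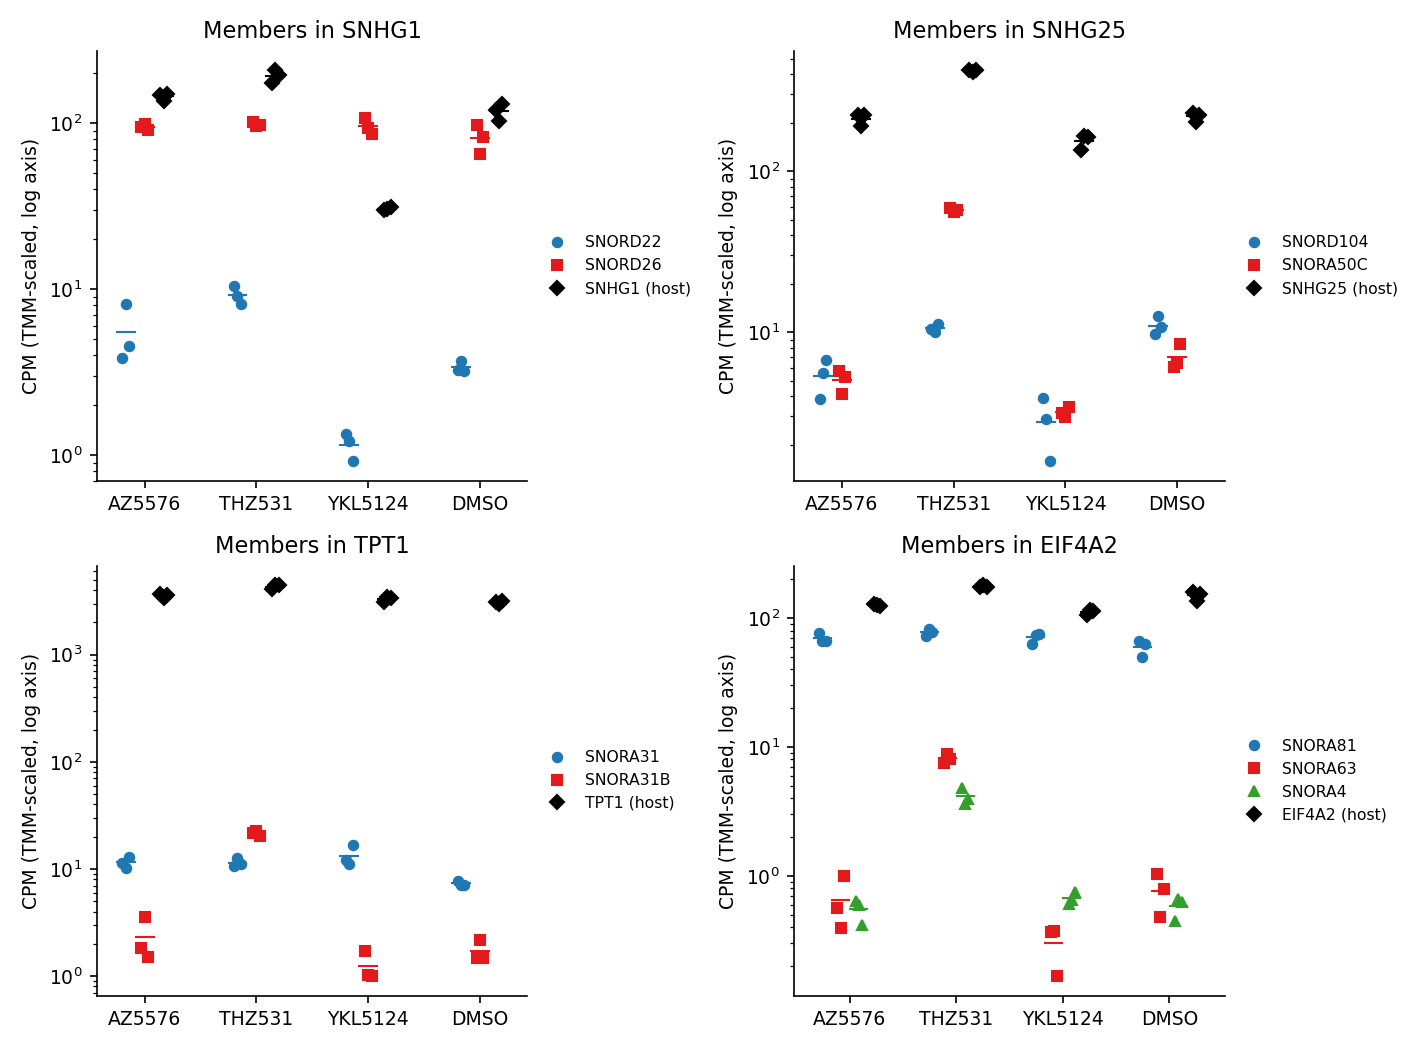
CPM by library, on a log axis, of the RNAs that share the hosts SNHG1, SNHG25, TPT1 and EIF4A2, with the host as black diamonds and bars at group means. In SNHG1, host and SNORD22 are both low in YKL5124 while SNORD26 stays between 86.8 and 108 CPM.

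EIF4A2 holds 3 H/ACA RNAs. SNORA81 had 72.9, 82.9 and 77.3 CPM in THZ531 and 66.5, 50.3 and 62.5 CPM in DMSO, a change of 0.38 (SE 0.09, adjusted p = 0.000584) that came to 0.00 with fly scaling. SNORA63 had 7.55, 8.82 and 8.13 CPM in THZ531 and 1.04, 0.476 and 0.786 CPM in DMSO, and SNORA4 had 4.82, 3.64 and 3.96 CPM in THZ531 and 0.445, 0.666 and 0.629 CPM in DMSO. EIF4A2 had 174, 180 and 175 CPM in THZ531 and 160, 136 and 154 CPM in DMSO, a change of 0.23 (SE 0.06, adjusted p = 0.00271) whose sign turned with fly scaling (-0.14). Thus SNORA63 and SNORA4 had several times their DMSO level where SNORA81 and the host had not. Both entered the set through THZ531, with 59 and 58 counts outside it, so this contrast is partly set by how they were chosen. The ratio of SNORA81 over SNORA63 differed by -2.78 between THZ531 and DMSO, without overlap, under the same limit.

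The scaRNAs, which guide modification of spliceosomal RNAs in Cajal bodies, showed changes between -0.90 (SCARNA5 in AZ5576) and 1.07 (SCARNA22 in YKL5124) against DMSO. SCARNA2 was higher in all 3, by 0.83 in AZ5576, 0.69 in THZ531 and 0.95 in YKL5124. Its row equals that of the overlapping gene AL356488.2 in every library. Without DMSO replicate 3 the values were 0.49, 0.36 and 0.61, with no call left, and the first 2 calls were also lost without AZ5576 replicate 3 (0.67) and THZ531 replicate 1 or 3 (0.56 and 0.54). SCARNA5, in ATG16L1, fell by 0.90 in AZ5576 (SE 0.26, adjusted p = 0.00618). SCARNA18B, in the deubiquitinase gene UCHL5, had 2.96, 2.77 and 3.26 CPM in AZ5576, 8.59, 9.93 and 9.63 in THZ531, 3.64, 4.19 and 3.41 in YKL5124, and 5.26, 5.90 and 5.19 in DMSO. It fell by 0.83 in AZ5576 (SE 0.18, adjusted p = 0.000497) and rose by 0.79 in THZ531 (SE 0.15, adjusted p = 3.87e-05). Its -0.53 in YKL5124 was lost without YKL5124 replicate 1 (-0.52) or 3 (-0.46) or DMSO replicate 2 (-0.48).

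SCARNA22, in NSD2, was called higher in YKL5124 (1.07) and THZ531 (0.75). The first call was lost without YKL5124 replicate 3 (0.89), and the second without THZ531 replicate 2 (0.73) or 3 (0.50) or DMSO replicate 2 (0.54). SCARNA7 was called in none (-0.06 in AZ5576, 0.31 in THZ531 and -0.00 in YKL5124). The Rfam gene RF00493 in CEP295 lies in an exon of SCARNA9. It had 61.6, 63.8 and 65.3 CPM in AZ5576, 82.7, 68.2 and 72.2 in THZ531, 44.3, 41.1 and 38.1 in YKL5124, and 37.4, 28.4 and 33.7 in DMSO. AZ5576 and THZ531 lay above YKL5124, and YKL5124 above DMSO, without overlap. It rose by 0.93 in AZ5576 (SE 0.09, adjusted p = 1.22e-09) and by 1.16 in THZ531 (SE 0.09, adjusted p = 2.86e-12).

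The fold changes between inhibitors have no DMSO library in either group, although the columns taken as DMSO share the filter and the estimate of spread. THZ531 had 32 RNAs higher and 7 lower than AZ5576, beside 27.1% and 27.8% of all genes (55% in either direction), and 35 higher and 9 lower than YKL5124, beside 30.5% and 30.5% (61% in either direction). Among the 57 RNAs with at least 90 counts outside THZ531 these counts were 19 and 7, and 23 and 9. SNORD84 was higher in THZ531 by 4.12 over AZ5576 (SE 0.13, adjusted p = 2.88e-21) and by 4.92 over YKL5124 (SE 0.15, adjusted p = 5.28e-22). SNORD13 was lower in THZ531, with differences of -1.27 against AZ5576 (SE 0.19, adjusted p = 9.05e-07) and -1.28 against YKL5124 (SE 0.18, adjusted p = 5.47e-07).

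AZ5576 had 9 RNAs higher and 0 lower than YKL5124 by edgeR, beside 6.23% and 9.6% of all genes (15.8% in either direction), and 6 and 0 by DESeq2. The calls of SNORD22 (2.12, SE 0.28, adjusted p = 2.57e-06), SNORA79B in CCNB1IP1 (0.72, SE 0.13, adjusted p = 0.000146) and RF00493 in CEP295 (0.63, adjusted p = 7.5e-06) stood without any 1 library. SNORD84 (0.80) lost its call without AZ5576 replicate 3 (0.60) or YKL5124 replicate 1 (0.62), SNORA50C (0.72) without AZ5576 replicate 1 (0.62), and SNORD104 (0.99) without AZ5576 replicate 3 (0.72) or YKL5124 replicate 3 (0.67). SNORD43 and SNORD68 each lost theirs without any of at least 3 libraries. For SNORD13 the difference between AZ5576 and YKL5124 was -0.02 (SE 0.16) and for SNORD118 0.09 (SE 0.19), neither called.

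The proteins of the same particles were counted from lists chosen with earlier results of these data known, to be read against the shares of all genes called higher and lower (30.4% and 32.9% in THZ531, 18.6% and 23.1% in AZ5576, 7.25% and 13.5% in YKL5124). These shares are from TMM scaling and are no background for the counts with fly scaling. All 4 core proteins of C/D particles were higher in THZ531 (median 0.71), among them NOP56 (0.77, SE 0.06) and fibrillarin, FBL (0.79, SE 0.06). With fly scaling 3 of the 4 were higher (median 0.35). All 4 core proteins of H/ACA particles were higher as well (median 0.29), among them dyskerin, DKC1 (0.36, SE 0.07), and GAR1 (0.29, SE 0.08), but with fly scaling their median was -0.06 and edgeR called none of the 4 in either direction. In AZ5576, FBL was higher (0.19) and NOP56 lower (-0.15), and NOP10 (0.22) and NHP2 (0.24) of the H/ACA core were higher. With fly scaling the 3 higher calls were lost. In YKL5124 NOP56 was the core gene called, and it was lower (-0.20), a call lost with fly scaling.

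Of 11 assembly factors tested, 6 were higher and 2 lower in THZ531, 2 and 3 in AZ5576, and 0 and 1 in YKL5124. With fly scaling these counts were 2 and 3, 0 and 4, and 0 and 1. NAF1, which loads H/ACA proteins onto nascent RNA, had 39.1, 41.8 and 36.9 CPM in THZ531 and 12.1, 9.04 and 11.8 CPM in DMSO. It rose by 1.83 in THZ531 (SE 0.11, adjusted p = 1.27e-14) and fell by 0.85 in AZ5576 (SE 0.15) and by 0.62 in YKL5124 (SE 0.14). SHQ1, a chaperone of dyskerin, fell by 1.16 in THZ531 (SE 0.10). Of 5 Cajal body and cap genes, 3 were higher and 1 lower in THZ531, 1 and 3 in AZ5576, and 1 and 2 in YKL5124, and with fly scaling 1 and 2, 0 and 3, and 0 and 2. Coilin, COIL, the scaffold of Cajal bodies, fell in all 3, by 1.36 in AZ5576 (SE 0.14), 0.93 in THZ531 (SE 0.13) and 0.89 in YKL5124 (SE 0.13).

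Of 17 processing and decay genes, 7 were higher and 6 lower in THZ531, 3 and 6 in AZ5576, and 1 and 5 in YKL5124, and with fly scaling 2 and 7, 0 and 6, and 0 and 5. EXOSC3, a subunit of the RNA exosome that trims and degrades snoRNA precursors, had 65.4, 69.3 and 60.6 CPM in AZ5576, 52.6, 54.5 and 50.4 in THZ531, 75.2, 77.2 and 70.2 in YKL5124, and 108, 107 and 109 in DMSO. It fell by 0.74 in AZ5576 (SE 0.07), 1.04 in THZ531 (SE 0.07) and 0.54 in YKL5124 (SE 0.07). The poly(A) polymerase TENT4B fell by 0.72 in AZ5576 (SE 0.08), and the poly(A) binding protein PABPC1 rose by 0.65 in THZ531 (SE 0.06). Among 51 host genes tested, 30 were higher and 12 lower in THZ531, 19 and 12 in AZ5576, and 2 and 11 in YKL5124, beside the same shares of all genes. With fly scaling the host counts were 6 and 19, 0 and 12, and 0 and 10. Whether that shift follows all genes cannot be read here, because no shares with fly scaling are given. The part of these genes in the values of the RNAs was not tested.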

How the data were processed

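The authors deposited raw read counts per transcript row (295100 rows, 12 libraries). Per the submitters' processing notes, hg38 and dm6 were the builds, and edgeR 3.32.1, Trim Galore 0.6.5 and bcl2fastq 2.17.1.14 were among the tools. The sources used here do not name the aligner, counter, strand setting, handling of reads with several matches or the interval counted per row.

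Rows were named through GENCODE v29, the row with the highest total stood for a gene, and 94 genes with counts identical to another were dropped. The 5197 unnamed human rows (0.635% to 0.699% of counts) stayed out of library sizes and tests. edgeR 4.0.16 (R 4.3.3) used filterByExpr (minimum count 10), TMM over human genes and 1 quasi-likelihood fit of all 12 libraries by group. p-values were Benjamini-Hochberg adjusted over 15831 genes (threshold 0.05). SE is the log2 change divided by the root of F. CPM are TMM-scaled. Log2 ratios used a prior count of 2. limma 3.58.1, DESeq2 1.42.0, Python 3.11.15, pandas 2.3.3, scipy 1.17.1, Biopython 1.88 and matplotlib 3.10.9 were also used, and the fit was tested on simulated data.

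Hosts were genes of the same strand that span the RNA. The members, gene lists and tests were chosen with earlier results of these data known. Named RNAs were the 5 largest rises and falls per class and inhibitor with at least 2 CPM in a group and no overlap, the 5 C/D and 5 H/ACA RNAs with the highest CPM in DMSO, all scaRNAs, and preset RNAs. SNORA61, SNORA63, SNORA4, SNORA57, SNORA58, SNORD68 and the Rfam genes were named after their values were seen. Alternatives were other scalings, filters, rows, tools, a replicate block and leaving out each library. Values of 1 RNA that the rule names are not reported here.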

Additional observations from a re-analysis of the deposited data

Results flagged for a closer look

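Outside the set, snoRNA and scaRNA genes with a row but under the minimum of 120 counts (898 genes) together held 120, 106 and 108 CPM in the THZ531 libraries (mean 111 CPM) and 63.9, 59.0 and 56.5 CPM in the DMSO libraries. They drew attention as a signal in genes that no comparison used, above its level in DMSO. AZ5576 had 53.9, 58.6 and 57.8 CPM and YKL5124 57.1, 53.9 and 57.3 CPM. The THZ531 libraries lay above all 9 others, and between 195 and 209 of these genes had a count there, against 186 to 202 in DMSO. The single genes were not tested.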

How the results depend on the processing

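Without RNAs under an exon of another gene, 36 were left. Against DMSO, 16 were called in AZ5576, 25 in THZ531 and 13 in YKL5124, beside 41.7%, 63.4% and 20.8% of all genes. In THZ531, 19 were called against AZ5576 and 23 against YKL5124, beside 55% and 61% of all genes. In AZ5576 against YKL5124, 2 were called, beside 15.8%. Fewer RNAs enter by construction. With at least 400 counts, 29 were left, with 23, 15 and 16 called for THZ531 against DMSO, AZ5576 and YKL5124. Fly scaling gave 5 calls for AZ5576 against YKL5124, with no share of all genes given for that scaling, and the cause was not tested. Leaving out each library gave 24 to 30 calls in AZ5576, 42 to 50 in THZ531, 19 to 24 in YKL5124, 35 to 38 in THZ531 against AZ5576, 40 to 44 against YKL5124 and 6 to 8 in AZ5576 against YKL5124.

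Among called values, signs turned in THZ531 with fly scaling for SNORD3A (-0.02), SNORD3B-1 (-0.09), SNORD26 (-0.10), SNORD3B-2 (-0.15), RPL3 (-0.08), UCHL5 (-0.09) and EIF4A2 (-0.14), and with library size alone for SNORD3B-1 (-0.01), SNORD26 (-0.03), SNORD3B-2 (-0.07), RPL3 (-0.02), UCHL5 (-0.02) and EIF4A2 (-0.06). With rows summed per gene DENND4A turned in AZ5576 (-0.06). The causes were not tested.

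Same-numbered libraries did not deviate together (r -0.102 to 0.072 over genes). Such correlations cannot show whether the numbers mark a shared culture or batch, and the labels do not say. With the replicate block 30 RNAs were called in AZ5576, 50 in THZ531 and 23 in YKL5124, and SNORD8 lost its call in AZ5576 and SNORA81 and SNORA63 theirs in YKL5124. Of the values of named RNAs and hosts under all alternatives, 2856 stayed on their side of the threshold, 153 lost and 58 gained a call, and 14 called values turned. Of the 2856, 65 changed sign without a call, among them SNORD3C in THZ531 with fly scaling (-0.14). RNAs with few counts are limited by depth: AZ5576 replicate 2 had 5048321 counts.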
